A study of Mus musculus with 10 samples.

Results

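The ATM and ATR checkpoint genes are 10 genes, Atm, Atr, Atrip, Topbp1, Hus1, Rad1, Mdc1, Trp53bp1, Brca1 and Chek1, out of 55536 genes in the deposited count table. They were chosen by gene symbol and not by a rule on their values, although earlier results of these data were known. All 10 were among the 19244 genes with enough counts to be tested. Their transcripts were measured by RNA sequencing in sorted oocytes from female mouse embryos at E16.5, of strain C57BL/6 per the labels, in 10 libraries, of which 5 were Taf4b-heterozygous and 5 Taf4b-deficient. Taf4b encodes TAF4b, a form of the TFIID subunit TAF4 that is abundant in the gonads, and TFIID helps RNA polymerase to start at core promoters. Every embryo came from a mating of parents that carried the Oct4-EGFP transgene (B6;129S4-Pou5f1tm2Jae/J) in homozygous form and the Taf4b mutation in heterozygous form, so both genotypes carry the reporter. Live germ cells were sorted by their green fluorescence from dissociated fetal ovaries. The comparison group is heterozygous for the mutation, and no wild-type library is among the samples analysed here. The libraries carry 3 litter dates. The labels do not state if 2 libraries of the same genotype stem from different embryos or from pools. The p-values therefore rest on the variation among libraries, which can be in part technical.

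ATM and ATR are large protein kinases that sense damaged DNA. ATM is switched on at broken DNA ends by the MRE11-RAD50-NBS1 complex, whereas ATR is brought to single-stranded DNA by its partner ATRIP and is switched on by TOPBP1, which docks on the ring-shaped RAD9-RAD1-HUS1 clamp. CHK1 is the main kinase that ATR activates, and MDC1, 53BP1 and BRCA1 gather at marked chromatin beside a break and steer its repair. Fetal oocytes make programmed DNA breaks in meiotic prophase, and both kinases are known to act there: ATM limits the number of breaks, and ATR with BRCA1 and TOPBP1 marks chromosome axes that have not synapsed.

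The heterozygous libraries held 18170000 to 26980000 counts each and the deficient ones 16710000 to 23680000, rounded. Levels are given in CPM, counts scaled to a common library size with TMM factors. Taf4b itself read 65.7 to 290 CPM in heterozygous and 58.2 to 81.7 in deficient libraries, and the library labelled heterozygous 4, at 65.7, lay within the deficient range. Germ cell markers summed to 3940 to 6580 CPM in heterozygous and 3330 to 5900 in deficient libraries, with none of the 8 at 0 in all libraries. Markers of red blood cells summed to 65.0 to 2080 CPM in heterozygous and 107 to 1610 in deficient libraries, and 3 libraries stood apart: the library labelled heterozygous 4 at 719, heterozygous 5 at 2080 and deficient 5 at 1610, against 65.0 to 220 in the other 7. None of the 6 red blood cell markers was at 0 in all libraries. The sums for pregranulosa, stromal, surface epithelial, endothelial and macrophage markers were at most 113 CPM in any library. The same 3 libraries had the highest surface epithelial sums, 56.2, 54.5 and 51.0 CPM against 16.3 to 36.1 in the other 7. Their pregranulosa sums were 93.9, 88.3 and 93.2 CPM, above all others but deficient 3 at 113. Their stromal, endothelial and macrophage sums overlapped those of the other 7. Mitochondrial genes took 3.04%, 3.31% and 3.34% of their counts, against 0.853% to 2.56% in the other 7. In such bulk samples fewer cells of a type and less RNA per cell cannot be told apart.

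The stretches just upstream of 4 members are shown because these genes had the smallest p-values among the members in edgeR's test, each under 0.05 before adjustment: Atr had higher and Atrip, Hus1 and Rad1 lower values in deficient libraries, and TAF4b is a promoter-recognition subunit. Each is read 5′ to 3′ on the gene's own strand from RefSeq on GRCm38.p6 and ends at the last base before the annotated start, with bases in exons of coding genes left out. They lie at chr9:95857447-95857596 on the plus strand (Atr), chr9:109074125-109074274 on the minus strand (Atrip), chr11:9011192-9011341 on the minus strand (Hus1) and chr15:10485948-10486017 on the plus strand (Rad1). Capitals mark the GC box GGGCGG or the CCAAT box on either strand.
Atr: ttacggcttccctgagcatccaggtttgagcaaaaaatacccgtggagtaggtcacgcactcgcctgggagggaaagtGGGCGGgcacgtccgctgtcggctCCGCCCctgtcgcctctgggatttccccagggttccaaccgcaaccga
Atrip: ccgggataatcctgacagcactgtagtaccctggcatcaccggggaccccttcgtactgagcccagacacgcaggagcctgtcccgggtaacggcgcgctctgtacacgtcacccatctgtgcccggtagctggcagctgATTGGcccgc
Hus1: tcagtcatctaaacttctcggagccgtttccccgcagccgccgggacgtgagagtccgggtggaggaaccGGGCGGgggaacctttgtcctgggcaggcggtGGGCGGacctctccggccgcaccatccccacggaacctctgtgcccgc
Rad1: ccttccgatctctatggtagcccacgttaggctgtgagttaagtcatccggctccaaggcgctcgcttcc
The letters of 4 motifs were searched on both strands in the 250 bases upstream of each start. They were CCAAT, which NF-Y binds, and GGGCGG, which SP1-type factors bind. The others were the TATA box, searched as TATAAA, and an ETS-type site, searched as CCGGAAG. The 10 members have 11 windows, since Rad1 has starts 20 bases apart whose windows overlap. GGGCGG was in 5 of the 11 windows (Atm, Atr, Hus1, Topbp1 and Trp53bp1) against 32.7% of 32851 windows of the same length. CCAAT was in 4 (Atm, Atrip, Brca1 and Mdc1) against 33.8%, CCGGAAG in 3 (both windows of Rad1, outside the bases shown for its first start, and Topbp1) against 6.91%, and TATAAA in 0 against 12.4%. Chek1 had none of them. A match is a description of the letters and not evidence of binding.

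The kinases themselves had higher mean values in deficient libraries and ATRIP's gene a lower one, but none of the 3 passed the test. Atr (ENSMUSG00000032409, chr9:95857597-95951781, plus strand, GRCm38) read 544, 672, 490, 260 and 202 CPM in the libraries labelled heterozygous 1 to 5, and 692, 826, 1231, 654 and 465 CPM in deficient 1 to 5. The ranges overlap through heterozygous 1, 2 and 3 and deficient 4 and 5, and the lowest values of all were in the libraries labelled heterozygous 4 and 5. Means were 434 ± 198 CPM (SD, n = 5) and 774 ± 286 (n = 5), a log2 fold change of 0.84 ± 0.35 (SE, 95% interval 0.089 to 1.58), with an adjusted p of 0.256 in edgeR's quasi-likelihood test with Benjamini-Hochberg adjustment. Without the 4 libraries of litter date 2 the value was 0.36, and without the 3 of litter date 1 it was 1.33. Without the 3 libraries with high red blood cell markers it was 0.58.

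Atm (ENSMUSG00000034218, chr9:53439149-53536740, minus strand) read 144, 138, 192, 56.5 and 31.1 CPM in the libraries labelled heterozygous 1 to 5. In deficient 1 to 5 it read 138, 239, 232, 220 and 109 CPM. Deficient 2, 3 and 4 were above every heterozygous library, whereas deficient 1 and 5 lay among them. The log2 fold change was 0.74 ± 0.42 (95% interval -0.15 to 1.64), with an adjusted p of 0.384 by the same edgeR test. It was 0.39 without the library labelled heterozygous 4, heterozygous 5 and deficient 5, the libraries with high red blood cell markers, whose part in the result beyond this was not tested.

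Atrip (ENSMUSG00000025646, chr9:109057933-109074124, minus strand) went the other way from Atr. It read 48.8, 57.1, 77.9, 64.5 and 54.3 CPM in the libraries labelled heterozygous 1 to 5 and 39.5, 47.9, 46.2, 38.3 and 46.7 CPM in deficient 1 to 5. All 5 deficient libraries lay below all 5 heterozygous ones, although the gap between 47.9 and 48.8 is narrow. The log2 fold change was -0.47 ± 0.17 (95% interval -0.84 to -0.096), with an adjusted p of 0.214 in edgeR's test. Atrip was the only 1 of the 10 members whose ranges did not overlap, against 680 of 19244 genes (3.53%). Atrip shares 1147 exonic bases with Trex1 on the same strand in GENCODE M21, and Atr shares 726 and 462 with the antisense genes 1700065D16Rik and Gm16794. No source used here gives the strand setting of the counting, and reads in these stretches cannot be assigned with certainty.

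**Figure D1:**
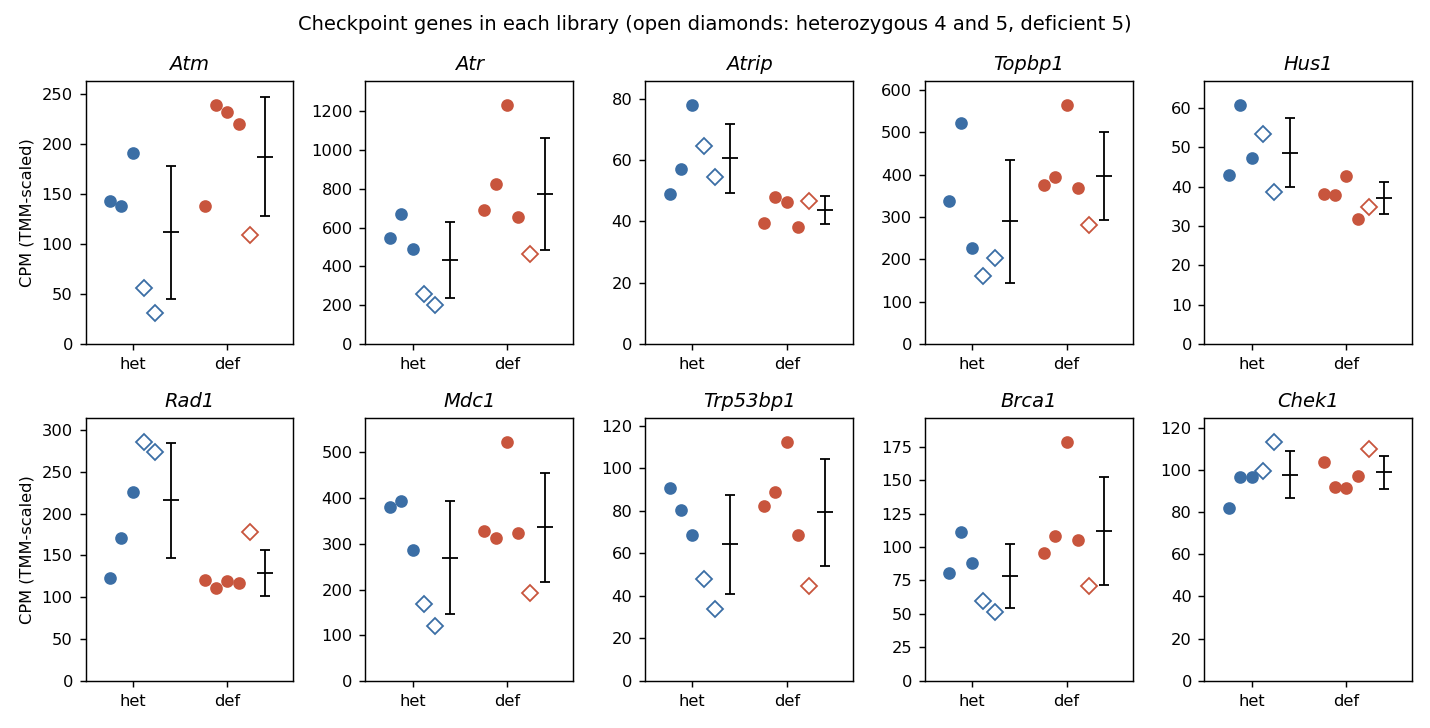
CPM (vertical axes, TMM-scaled counts, each from 0) of the 10 checkpoint genes in the 5 heterozygous (het, blue) and 5 deficient (def, red) libraries, with the mean and SD (n = 5) in black beside each group and open diamonds for the 3 libraries with high red blood cell markers. Atrip is the panel in which the groups do not overlap, with 38.3 to 47.9 CPM in deficient against 48.8 to 77.9 in heterozygous libraries.

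Of the genes that switch ATR on, the 2 clamp subunits had lower and Topbp1 had higher mean values in deficient libraries. Rad1 (ENSMUSG00000022248, chr15:10486018-10499063, plus strand), a clamp subunit, read 123, 171, 226, 286 and 273 CPM in the libraries labelled heterozygous 1 to 5 and 120, 111, 120, 117 and 178 CPM in deficient 1 to 5. Deficient 1 to 4 lay between 111 and 120 CPM, below every heterozygous library, while deficient 5 was above heterozygous 1 and 2. The log2 fold change was -0.74 ± 0.24 (95% interval -1.27 to -0.21), and its unadjusted p of 0.00941 was the smallest of the 10 members, with an adjusted p of 0.185 in edgeR's test. Without heterozygous 1 the value was -0.88 and passed edgeR's test, with an adjusted p of 0.0493. It was -0.45 without litter date 2 and -0.57 without the 3 libraries with high red blood cell markers.

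Hus1 (ENSMUSG00000020413, chr11:8993137-9011191, minus strand), another subunit of the clamp, read 43.0, 60.8, 47.4, 53.5 and 38.6 CPM in the libraries labelled heterozygous 1 to 5. Its values in deficient 1 to 5 were 38.1, 38.0, 42.7, 31.9 and 34.8 CPM. Only deficient 3 reached into the heterozygous range. The log2 fold change was -0.39 ± 0.18 (95% interval -0.77 to -0.013), with an adjusted p of 0.286 in edgeR's test. Topbp1 (ENSMUSG00000032555, chr9:103305215-103350428, plus strand), the activator, read 338, 521, 227, 160 and 203 CPM in the libraries labelled heterozygous 1 to 5 and 376, 393, 564, 367 and 282 in deficient 1 to 5. Heterozygous 2 was above 4 of the 5 deficient libraries. Its log2 fold change was 0.45 ± 0.31, with an adjusted p of 0.471 in edgeR's test, and it was 0.24 without the 3 libraries with high red blood cell markers and -0.045 without litter date 2.

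The genes that act at broken ends overlapped widely between genotypes. Brca1 (ENSMUSG00000017146, chr11:101488764-101551955, minus strand), a ubiquitin ligase that promotes repair by homologous recombination, had 51.1 to 111 CPM in heterozygous and 71.1 to 179 in deficient libraries. Deficient 3 alone, at 179 CPM, was above every heterozygous library. Its log2 fold change was 0.52 ± 0.27, with an adjusted p of 0.348 in edgeR's test, and it was 0.28 without deficient 3. Mdc1 (ENSMUSG00000061607, chr17:35841515-35859670, plus strand), the scaffold that binds phosphorylated H2AX, had 121 to 393 CPM in heterozygous and 192 to 524 in deficient libraries (log2 fold change 0.32 ± 0.34, adjusted p 0.663 in edgeR's test). Trp53bp1 (ENSMUSG00000043909, chr2:121193281-121271407, minus strand), which encodes 53BP1, a chromatin reader that protects broken ends from resection, ran from 33.7 to 90.6 and from 44.5 to 113 CPM (0.31 ± 0.29, adjusted p 0.623 in edgeR's test). Without the 3 libraries with high red blood cell markers, the log2 fold changes of Mdc1 and Trp53bp1 were 0.075 and 0.14. Trp53bp1 shares 2130 exonic bases with Tubgcp4 on the opposite strand, so its count carries the same uncertainty as that of Atr.

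Chek1 (ENSMUSG00000032113, chr9:36708482-36727065, minus strand), the kinase downstream of ATR, had nearly the same level in both genotypes. It read 82.1, 96.7, 96.6, 99.7 and 113 CPM in the libraries labelled heterozygous 1 to 5 and 104, 91.7, 91.5, 96.9 and 110 CPM in deficient 1 to 5. Every deficient value lay inside the heterozygous range. The means were 97.7 ± 11.1 and 98.7 ± 7.94 CPM (SD, n = 5 each), and the log2 fold change was 0.015 ± 0.15 with a 95% interval of -0.32 to 0.35. Differences within that interval are not excluded by these libraries. Its sign turned with the choice of scaling and in leave-one-out fits, between -0.091 and 0.092 over the 26 alternatives.

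In all, 0 of the 10 members passed an adjusted p of 0.05 in edgeR's quasi-likelihood test, as did 0 of all 19244 genes tested (0%). At an unadjusted p under 0.05 there were 4 members against 16.6% of all genes: 1 higher in deficient libraries (Atr, against 7.45% of genes) and 3 lower (Rad1, Atrip and Hus1, against 9.13%). DESeq2 called 706 of 19081 genes (3.7%) and 0 members, limma voom with quality weights 283 genes (1.47%) and 0 members, and edgeR with no low-count filter 251 genes (0.561%) and 0 members. Leaving out heterozygous 1 gave 606 genes (3.07%) and 1 member, Rad1, and leaving out heterozygous 2 gave 1 gene (0.00505%) and 0 members. The median log2 fold change of the 10 members was 0.31, with 7 positive and 3 negative, against -0.015 over all genes tested, of which 48.9% were positive. That median depended on the libraries: it was 0.47 without heterozygous 1, 0.20 without the library labelled heterozygous 4, 0.14 without heterozygous 5 and 0.12 without deficient 3. It was 0.11 without the 3 libraries with high red blood cell markers, 0.74 without litter date 1 and -0.053 without litter date 2, and 0.59 with litter date as a covariate.

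Over all genes, long transcripts had higher log2 fold changes than short ones, and most of the members have long transcripts. Protein-coding genes were split into 5 bins of equal size by their longest annotated transcript. The median log2 fold change was -0.15, -0.17, -0.12, -0.032 and 0.16 in bins 1 (shortest) to 5 (longest). Atm, Atr, Mdc1, Trp53bp1 and Brca1 fall in bin 5, Topbp1, Atrip, Hus1 and Rad1 in bin 4, and Chek1 in bin 3. The longest transcript of Atrip has 4248 bases, but its longest coding transcript has 2572, a length within bin 2 (1950 to 2898). With a correction for transcript length in each library, added after seeing the data, the median over the members was 0.072. Atr was then 0.61 and Atm 0.47, Mdc1 0.11, Trp53bp1 0.032 and Brca1 0.34, while Rad1, Atrip and Hus1 were -0.75, -0.48 and -0.42. The correction took the longest annotated transcript, so 4248 bases for Atrip. It was not run at the coding length of 2572 bases, and the value of Atrip at that length is not known. The part of transcript length in these differences was not tested beyond this.

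**Figure D2:**
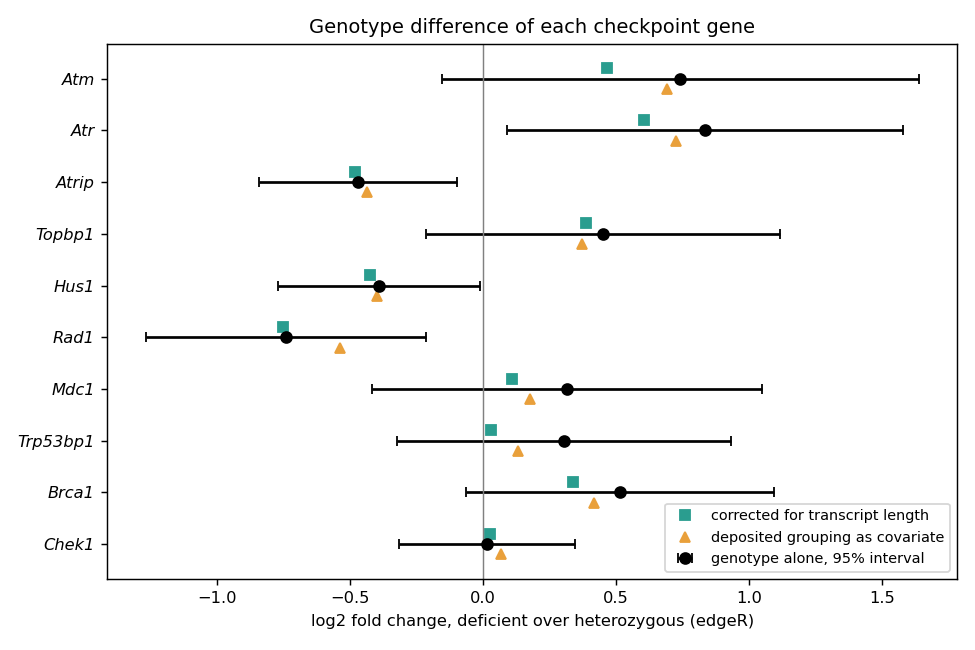
Log2 fold change, deficient over heterozygous (horizontal axis), of each checkpoint gene from edgeR with its 95% interval (black), with the value after the transcript length correction (green squares) and with the grouping behind the authors' table as a covariate (orange triangles). The intervals of Atr, Atrip, Hus1 and Rad1 exclude 0 before adjustment, and Mdc1 and Trp53bp1 have values of 0.11 and 0.032 after the length correction.

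The genotype difference was not the same within each litter date, which holds 1 or 2 libraries of a genotype and so gives values without a test. As differences in mean log2 CPM, deficient less heterozygous, Atr had 0.194, 1.5 and 1.45 in litter dates 1, 2 and 3, and Atm had -0.031, 1.18 and 2.32. Rad1 had -0.271, -1.14 and -0.925, so the difference in litter date 1 was the smallest for all 3 of these genes. Atrip (-0.416, -0.590 and -0.361) and Hus1 (-0.421, -0.322 and -0.212) were negative in every litter date. Topbp1 (-0.157, 1.3 and 0.661), Mdc1 (-0.234, 0.880 and 1.04) and Trp53bp1 (-0.052, 0.802 and 0.711) were negative in litter date 1 and positive in the others. Leaving out the library labelled heterozygous 4 gave log2 fold changes of 0.70 for Atr, 0.58 for Atm, -0.62 for Rad1, -0.44 for Atrip and -0.35 for Hus1.

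The authors' deposited table, a DESeq2 comparison of the same libraries and so not independent of the values above, called 2 of the 10 members against 6.55% of its 17881 genes with an adjusted p. In the authors' deposited table Atr had a log2 fold change of 0.71 ± 0.22 (SE, adjusted p 0.0299) and Rad1 of -0.56 ± 0.18 (adjusted p 0.0399). The other 8 had an adjusted p of 0.0901 (Atm) to 0.893 (Chek1) in the authors' deposited table. Its fold changes were rebuilt to within 0.00555 by a model with a grouping of the libraries into 3 levels that differs from the litter dates, and its level 3 holds the 3 libraries with high red blood cell markers. With that grouping as a covariate in edgeR, an alternative added after seeing the data, Atr was 0.73 (adjusted p 0.0978) and Rad1 -0.54 (adjusted p 0.120), and 0 members were called against 104 of 19244 genes (0.54%).

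Across the libraries, 6 members were low and 2 were high where red blood cell markers were high, and Atrip and Hus1 were in neither set. The library labelled heterozygous 4, heterozygous 5 and deficient 5 were the lowest of their genotype for 6 of the 10 members, Atm, Atr, Topbp1, Mdc1, Trp53bp1 and Brca1, against 17.6% of all genes tested. They were the highest of their genotype for Rad1 and Chek1, 2 of the 10, against 14.4% of all genes. Hba-a1, an alpha globin gene, read 260, 798 and 590 CPM in these 3 libraries and 24.0 to 102 in the other 7. Their part in the spread of the members was not tested. Chek1 had the smallest spread, a range of 0.46 in log2 CPM among heterozygous and 0.26 among deficient libraries (the 4.23 and 2.41 percentiles of all genes). Atm had the widest among heterozygous libraries, at 2.62 against a median of 1.33 over all genes. The range was wider in heterozygous than in deficient libraries for 9 of the 10 members, Brca1 being the exception, and for 75% of all genes.

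**Figure D3:**
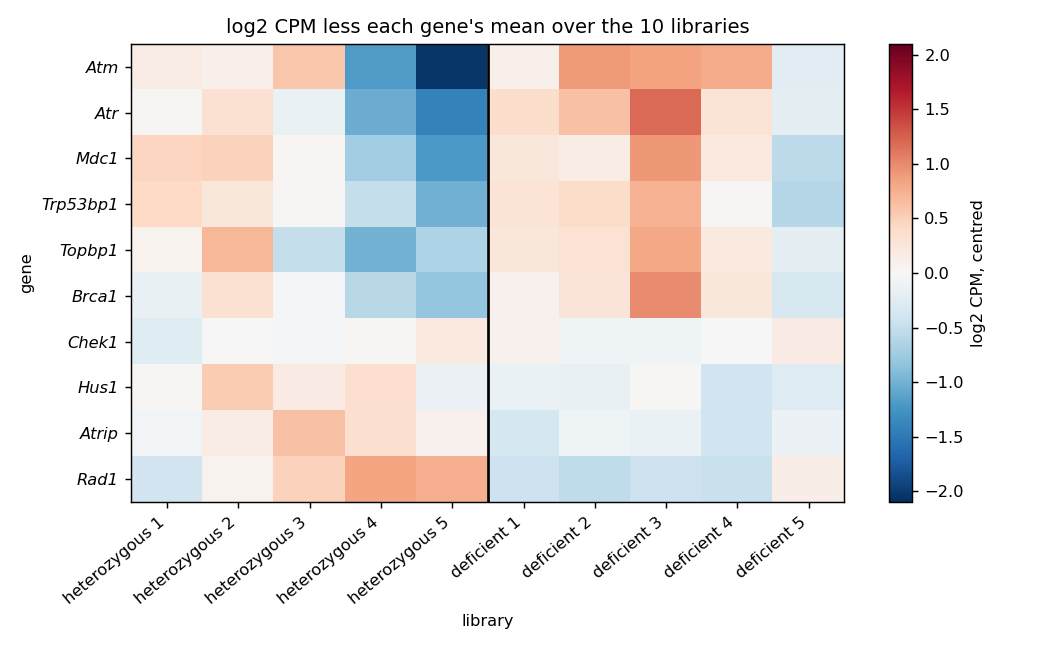
Log2 CPM of each checkpoint gene (rows) in each library (columns) less the gene's mean over the 10 libraries, red above and blue below the mean, with a line between the 5 heterozygous and 5 deficient libraries. The upper 6 rows are lowest in heterozygous 4 and 5 and, among deficient libraries, in deficient 5, whereas the Rad1 row is highest there.

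Likeness between expression patterns was measured as the root mean square difference of centred log2 CPM over the 10 libraries, among 13666 candidate genes, as a description without a test. Mdc1 and Trp53bp1 were the most alike of the members, with a difference of 0.169. Only 4 genes were nearer to Trp53bp1 than Mdc1 was, and 28 were nearer to Mdc1 than Trp53bp1 was. Atrip and Hus1 came next at 0.22, with 543 genes nearer to Atrip and 300 nearer to Hus1. Atr was nearest to Mdc1 among the members (0.285) and to Gmeb2 among all genes (0.122), and Atm was nearest to Atr (0.387) and to Frem2 (0.162). Over all candidates the nearest gene was Bloc1s5 for Atrip (0.0882), Ptdss2 for Hus1 (0.0918), Ift57 for Rad1 (0.105), Slain2 for Topbp1 (0.141) and Atf1 for Chek1 (0.0731). For Mdc1, Trp53bp1 and Brca1 it was Ncoa5 (0.101), Dennd1a (0.147) and Ecpas (0.0782).

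Ratios between genes whose products work together were compared within each library, where library size cancels. Differences that go with transcript length do not cancel in such a ratio, nor do reads shared with overlapping genes such as Trex1. Their part in the ratios was not tested. Atr over Atrip, the kinase over its obligate partner, was the ratio with the largest difference. Its log2 ratio was 3.48, 3.56, 2.65, 2.01 and 1.89 in the libraries labelled heterozygous 1 to 5 and 4.13, 4.11, 4.74, 4.09 and 3.32 in deficient 1 to 5. Deficient 1 to 4 were above every heterozygous library, and deficient 5 lay below heterozygous 1 and 2. The means were 2.72 ± 0.786 and 4.08 ± 0.503 (SD, n = 5 each), a difference of 1.36, or a ratio 2.56 times as high, with p = 0.0238 in a two-sided exact permutation test over libraries and 0.143 after Benjamini-Hochberg adjustment over the 6 ratios compared. Within the 3 levels of the grouping above the difference was 0.64, 1.31 and 1.37. Level 1 holds 1 heterozygous library and level 3 holds 1 deficient library, so these are values without a test.

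The other 5 ratios overlapped between genotypes as well. Chek1 over Atr differed by -0.883 (adjusted p = 0.238, exact permutation test), Topbp1 over Atr by -0.356 (adjusted p = 0.238), and Hus1 over Rad1, within the clamp, by 0.316 (adjusted p = 0.429). Brca1 over Trp53bp1, whose products steer breaks towards different repair routes, differed by 0.175 (adjusted p = 0.429, exact permutation test). Atm over Atr differed by 0.056 (adjusted p = 0.841, exact permutation test), with group means of -2.09 ± 0.497 and -2.04 ± 0.355. Without the 3 libraries with high red blood cell markers this last difference was -0.17.

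**Figure D4:**
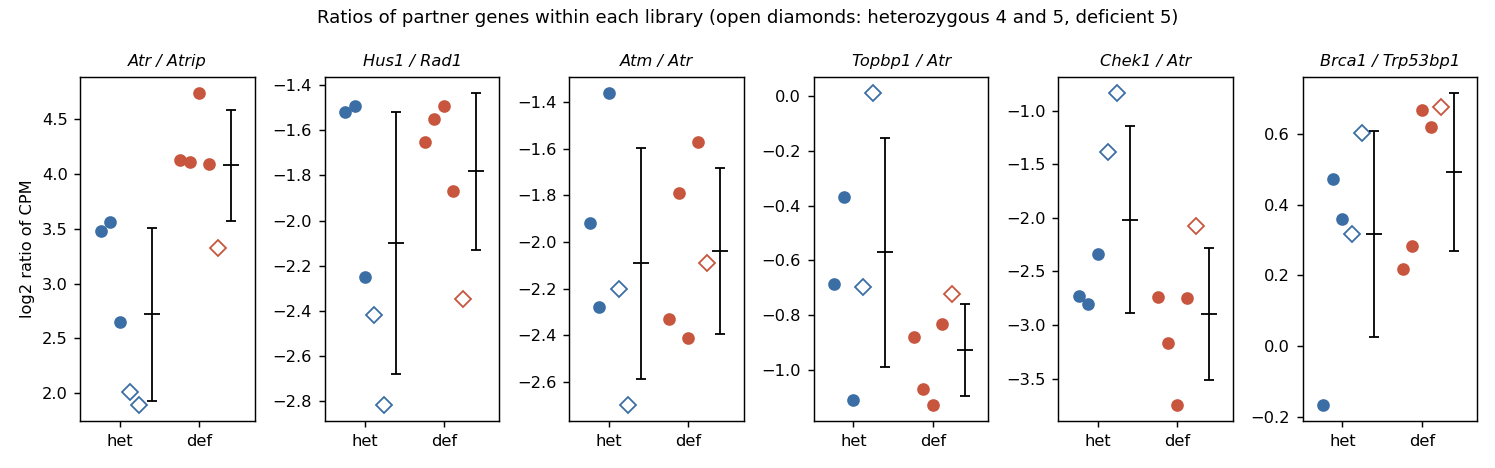
Log2 ratio of CPM between partner genes (vertical axes, which do not start at 0) in each heterozygous (het, blue) and deficient (def, red) library, with the mean and SD (n = 5) in black and open diamonds for the 3 libraries with high red blood cell markers. Atr over Atrip is 1.89 to 3.56 in heterozygous and 3.32 to 4.74 in deficient libraries, with an overlap through deficient 5.

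The other genes of the pathway were taken from 7 lists with 63 genes, all tested. In edgeR's test 0 of 63 passed an adjusted p of 0.05 (0% of all genes), and 7 had an unadjusted p under 0.05, 2 higher and 5 lower, against 16.6% of all genes. Their log2 fold changes had a median of 0.055, with 35 positive and 28 negative. The 16 genes of ATR activation and fork protection had a median of -0.033 and the 6 of ATM activation 0.11, the 14 of H2AX chromatin signalling 0.0038 and the 5 BRCA1 partners 0.074. The 9 checkpoint effectors had a median of -0.11, the 6 genes of the unsynapsed axis 0.14, and the 7 relatives of the kinases with their chaperone 0.37. The libraries with high red blood cell markers were the lowest of their genotype for 21 of these 63 genes (33.3%, against 17.6% of all genes tested). They were the highest for 8 (12.7%, against 14.4%).

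Among relatives of ATM and ATR, Mtor, the growth-regulating kinase, had 81.3 ± 16.7 CPM in heterozygous and 135 ± 34.4 in deficient libraries (log2 fold change 0.73 ± 0.21, adjusted p 0.155 in edgeR's test). Its groups overlap only through heterozygous 2 at 106 and deficient 5 at 102 CPM. Smg1, the kinase of nonsense-mediated decay, had a log2 fold change of 0.85 ± 0.29 and Trrap, a kinase-like scaffold without catalytic activity, 0.37 ± 0.18 (adjusted p 0.191 and 0.310 in edgeR's test). In the authors' deposited table Mtor (0.64, adjusted p 0.0174) and Smg1 (0.68, adjusted p 0.00398) were called. Paxip1, a partner of 53BP1, had 0.55 ± 0.27 (adjusted p 0.328 in edgeR's test). With the correction for transcript length in each library, the log2 fold changes were 0.49 for Mtor, 0.50 for Smg1, 0.067 for Trrap and 0.43 for Paxip1.

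Genes with lower values were led by Trp63, the p53 relative that removes damaged oocytes. It read 0.383, 1.91, 2.33, 2.27 and 7.05 CPM in the libraries labelled heterozygous 1 to 5 and 0.650, 0.429, 1.21, 0.361 and 0.748 in deficient 1 to 5, from 7 to 154 counts a library. The libraries labelled heterozygous 2 to 5 were above every deficient one and heterozygous 1 lay among them. Its log2 fold change was -2.02 ± 0.61 (adjusted p 0.162 in edgeR's test), and DESeq2 called it at -2.04 (adjusted p 0.0275), as did edgeR's test without heterozygous 1, at -2.30 (adjusted p 0.0394). Without heterozygous 5 it was -1.34, and without the 3 libraries with high red blood cell markers it was -1.21. The authors' deposited table had Trp63 at -1.35 and did not call it (adjusted p 0.0927). In limma on log2(TPM + 1) it was -0.39. Within level 1 of the grouping above its difference in mean log2 CPM was positive, at 0.387. That value rests on 1 heterozygous library, heterozygous 1, with 8 counts. Rfc2, a subunit of the complexes that load clamps, had -0.46 ± 0.18 (adjusted p 0.244 in edgeR's test). Kat5, the acetyltransferase that helps to activate ATM, and Rpa1, the large subunit of the protein that coats single-stranded DNA, had -0.90 ± 0.33 and -0.80 ± 0.34 (adjusted p 0.214 and 0.265 in edgeR's test). Both rested on heterozygous 3: without it they were -0.39 and -0.28.

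Levels between genes can be compared only per transcript length, and the deposited tables gave different orders. In TPM, the length-scaled unit, as deposited, the mean over the 10 libraries was 1259 for Atm, 942 for Topbp1, 289 for Atr, 72.6 for Trp53bp1, 52.3 for Mdc1, 32.0 for Rad1, 26.2 for Chek1, 15.1 for Brca1, 9.64 for Atrip and 8.57 for Hus1. Only Topbp1 against Atr (559 to 1527 and 115 to 550) and Atr against Trp53bp1 (at most 106) had ranges over the libraries that were apart among neighbours in that order. Trp53bp1 was above Mdc1 in 10 of 10 libraries, although their ranges overlap. When the deposited counts were divided by the longest annotated transcript and scaled to the same sum as TPM, the order was Atr 162, Topbp1 144, Rad1 91.3, Mdc1 90.2, Chek1 57.0, Atm 33.0, Brca1 31.6, Atrip 27.1, Hus1 20.5 and Trp53bp1 16.3, and all neighbours overlapped. Atm was thus first in the one and sixth in the other. The level of Atrip from counts rests on a length of 4248 bases, against 2572 for its longest coding transcript, so the order can depend on the transcript used.

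The mean deposited TPM over the level from counts was 38.2 for Atm, 6.53 for Topbp1, 4.46 for Trp53bp1 and 1.78 for Atr. For the other 6 members it was 0.350 to 0.580, near the median of 0.478 over all genes. A ratio of at least 5 was seen in 860 genes (4.47%), among them Mtor at 103 and Paxip1 at 28.5. The tables come from different tools, StringTie for TPM and featureCounts for counts, per the submitters' processing notes, and the cause of the difference was not tested. The genotype differences were less affected than the levels: in limma on log2(TPM + 1), Atm was 0.85, Atr 0.79, Rad1 -0.78, Atrip -0.51 and Hus1 -0.44.

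**Figure D5:**
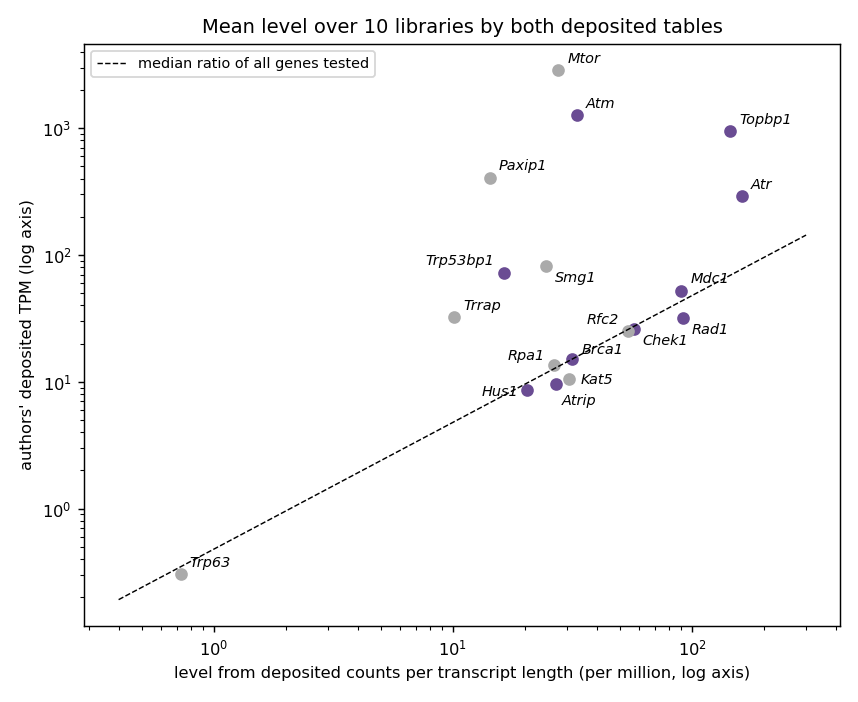
Mean level over the 10 libraries by the deposited counts per transcript length (horizontal, scaled to the same sum as TPM, log axis) against the deposited TPM (vertical, log axis), for the 10 checkpoint genes (purple) and 8 named pathway genes (grey). The dashed line is the median ratio of all genes, 0.478, and Atm lies above it with a ratio of 38.2, as do Topbp1 (6.53) and Trp53bp1 (4.46).

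Atm, Atr, Atrip, Topbp1 and Chek1 all lie on chromosome 9, which holds 5.76% of the genes tested. Their log2 fold changes ran from -0.47 (Atrip) to 0.84 (Atr), and the median over the 1109 genes tested on that chromosome was 0.015.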

How the data were processed

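The authors deposited whole-number counts per gene from featureCounts of Subread 1.6.2 after Trim Galore 0.5.0 and HISAT2 2.1.0 on GRCm38, TPM per gene from StringTie 1.3.3b, and a DESeq2 comparison, per the submitters' processing notes. Per the file headers, that deposited table holds for each gene the mean signal (normalized count), the log2 fold change with its SE, a Wald score, and raw and adjusted p-values. No source used here gives the strand or multi-mapping settings. Genes without a symbol (382 of 55536) took 0.0632% to 0.0945% of a library's counts.

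The quasi-likelihood test of edgeR 4.0.16 (R 4.3.3) was run on the counts with genotype as the only term, TMM scaling and edgeR's expression filter, and called at a Benjamini-Hochberg adjusted p under 0.05 over all 19244 genes. SE is the fold change over the square root of its F statistic. Ratios between members used log2 CPM and a two-sided exact permutation test over samples. Lengths and overlaps came from GENCODE M21, in which 99.54% of the genes had the same coordinates as in the TPM table. The fits were tested on simulated counts.

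The members and gene lists were chosen with earlier results of these data known. Named pathway genes are the 4 with the smallest p in each direction. Alternatives were other scalings and filters, DESeq2 1.42.0, limma 3.58.1 with voom quality weights or on log2(TPM + 1) and log2(TPM + 0.1), a term for litter date or for replicate number, and libraries or litter dates left out. The authors' grouping, recovered from the deposited fold changes (a DESeq2 refit gave 1172 calls, as deposited), and a correction for transcript length in each library were added after seeing the data. No libraries were identical (correlation 0.9019 to 0.9796 between libraries).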

Additional observations from a re-analysis of the deposited data

Results flagged for a closer look

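Among 48 groups of 5 libraries checked, 4 had a library far from the others of its genotype, where chance gives about 1 in 20. Rad1 read 178 CPM in deficient 5 and 111 to 120 in the other 4 deficient libraries. Kat5 had 90.4 CPM in heterozygous 3, where its genotype otherwise had 24.4 to 32.4, and 25.0 in deficient 3 against 20.8 to 21.5 in the other deficient libraries. For Rpa1, heterozygous 3 had 174 CPM and the rest of its genotype 48.3 to 62.1.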

How the results depend on the processing

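Of 234 alternative values of the log2 fold change for the members other than Chek1, 230 kept the direction and the side of the threshold, 3 turned sign and 1 passed the test. Without litter date 2, Topbp1 was -0.045, Mdc1 -0.078 and Trp53bp1 -0.061. Rad1 passed without heterozygous 1, so that 1 member was called there against 0 in the main analysis (0 to 1 over the libraries left out). Chek1, at 0.015, turned to -0.0084 with upper-quartile scaling, -0.0057 with no low-count filter, -0.0066 in DESeq2, -0.089 on log2(TPM + 1), -0.091 on log2(TPM + 0.1), -0.018 with litter date as a covariate and -0.073 without litter date 1, and ran from -0.039 to 0.073 when each library was left out. Atm over Atr ran from -0.096 to 0.24 when each library was left out and was -0.17 without the 3 libraries with high red blood cell markers. Topbp1 over Atr ran from -0.49 to -0.21 when each library was left out, with an adjusted p of 0.0476 (exact permutation test) without heterozygous 3. Atr over Atrip stayed between 1.04 and 1.57, with adjusted p from 0.0952 to 0.286 (exact permutation test, or a sign flip within replicate numbers for the replicate block). With so few libraries the sign flip cannot give a p under 0.05, so its outcome was fixed and decides nothing here.

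Among the 63 pathway genes, 1 was called with DESeq2 (Trp63), against 3.7% of all genes. When each library was left out 0 to 1 were called, with Trp63 called without heterozygous 1, against 3.07% of all genes. Over all genes tested, against 0 by edgeR with genotype alone, 251 were called with no low-count filter, 706 by DESeq2, 283 by limma voom with quality weights, 104 with the grouping of the authors' table, and 0 to 606 when each library was left out, with 606 without heterozygous 1 and 1 without heterozygous 2. The deviations of libraries with the same replicate number, 1 to 5, had correlations of 0.169, 0.0346, 0.118, -0.262 and 0.593. Heterozygous 4 and deficient 5, with different numbers, had 0.609, and these libraries and heterozygous 5 are those with high red blood cell markers. Whether the numbers pair the libraries cannot be told from these values. With the replicate block, 1 gene and 0 members were called, Atr was 0.90 and Rad1 -0.70.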
